A study of Mus musculus with 7 samples.

Results

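Satellite cells, the muscle stem cells (MuSCs), lie beside the myofibres of adult muscle and rest there until an injury. Once activated they divide as myoblasts, which can leave the cell cycle, express contractile proteins and fuse into new fibres. Pax7 marks the stem cell, Myf5 and Myod1 the committed cell and Myog the cell that has begun to differentiate. Myoblasts grown on a dish are the usual stand-in for activated stem cells, and the droplet single-cell RNA libraries described here allow them to be set beside stem cells taken straight from muscle.

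The cells compared are 4338 cultured primary myoblasts (1 library) and 2638 homeostatic MuSCs (2 libraries, with 1397 and 1241 cells, called homeostatic 1 and 2 below), 6976 of the 15474 cell barcodes of the series. A cell was taken if it had at least 200 detected genes, at most 10% mitochondrial UMIs (unique molecular identifiers, each counting 1 captured transcript), at least 1 UMI summed over Cdh15, Des, Myf5, Myod1, Myog and Chrdl2, and no UMI of Ptprc, Pecam1 or Tnmd. All libraries come from mouse muscle of the strain written C56BL/6J in the labels. The homeostatic MuSCs were sorted by flow cytometry from muscle for which no injury is named, and neither the age nor the number of mice is given for them. The primary myoblasts started as satellite cells sorted from hindlimbs of wild-type mice aged 3 months. They were grown on collagen in medium with 2.5 ng/µl basic fibroblast growth factor (bFGF), 10% horse serum and antibiotics, for 4 passages by one label and 4 to 5 by another. Injured MuSCs (2 libraries, sorted from muscles labelled TE-EDL 60 h after 2 µM of the muscle-destroying snake toxin notexin) entered the model to measure the spread between libraries. They also took part in the filter on low counts and in the scaling. With them 12449 genes were tested, and 11208 with the 3 compared libraries only. Total muscle (2 libraries, unsorted, titled wt for wild-type, from mice aged 3 months) served only for background shares and 1 alternative fit. The culture is represented by 1 library, so culture, medium, passage, handling and sequencing run cannot be told apart here, and nothing shows how another culture would vary. The labels do not say that the homeostatic libraries came from separate mice. The p-values measure only the spread between libraries, which may be technical.

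The libraries differed widely in depth. The chosen cells had a median of 2392 and 2476 UMIs and 1036 and 1061 genes in homeostatic 1 and 2, against 24823 UMIs and 4937.5 genes in myoblasts. The shallowest myoblast used held 5250 UMIs, and the shallowest homeostatic cells held 511 and 523. Summed over cells, the libraries held 3367709, 3031741 and 112325540 UMIs. Median mitochondrial shares were 1.34%, 1.28% and 1.03%. Among the compared libraries shared barcodes were few, 9 between homeostatic 1 and myoblasts, 3 between homeostatic 2 and myoblasts and 2 between the homeostatic libraries. The injured libraries, which enter the estimate of spread, share 123 barcodes with each other, 10.5% of the smaller set. What this does to the spread was not tested. Levels are given per library as CPM, counts scaled to a common library size by the trimmed mean of M-values (TMM). Where 3 levels are given as a pair against a single value, they are homeostatic 1, homeostatic 2 and myoblasts in that order. Shares of cells are given after each cell was thinned to 1000 UMIs, which leaves out 216 and 271 shallower homeostatic cells and no myoblast.

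**Figure D1:**
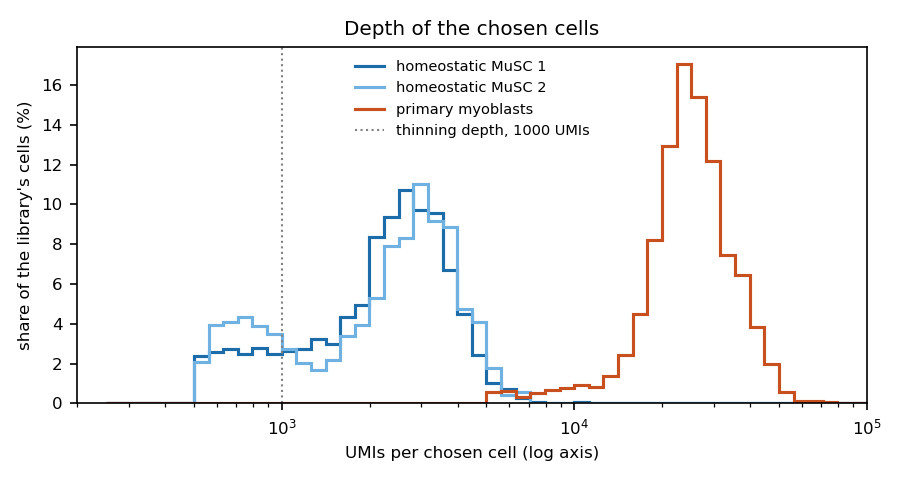
UMIs per chosen cell (log axis) against the share of each library's cells in percent, for the 2 homeostatic libraries and the primary myoblasts, with the thinning depth of 1000 UMIs as a dotted line. The myoblasts, with a median of 24823 UMIs, barely overlap the homeostatic cells, with medians of 2392 and 2476.

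The rule was met by 1397 of 1629 and 1241 of 1452 barcodes of the homeostatic libraries and by 4338 of 4429 of the myoblast library. In 4328 of the 4338 myoblasts, and in 1232 and 1095 homeostatic cells, at least 2 UMIs of the 6 selecting genes were found. Macrophage, lymphoid and neutrophil markers were at or near 0 in all 3 libraries (sums of markers are CPM without scaling). The rule had removed every cell with a UMI of Ptprc, an immune gene, so low immune levels were partly set in advance. Ptprc, Pecam1 and Tnmd, which are themselves in the marker lists, are at 0 by the rule. The 9 macrophage and monocyte markers summed to 8.91 and 6.6 against 2.09 CPM, with C1qa, C1qb, C1qc and Adgre1 at 0 in each. Other markers were unequal. The 10 fibro-adipogenic markers came to 1199 and 1281 against 115 CPM. Pi16 was at 0 in both homeostatic libraries, Pdgfra at 0 in homeostatic 2 and Lum at 0 in myoblasts. The 5 erythroid markers came to 2134 and 958 against 0.0089 CPM, and the 7 glial markers to 90.9 and 7.59 against 4.35 CPM. The 7 tenocyte markers came to 421 and 311 against 54.6 CPM, and most of that sum in the homeostatic libraries was Chodl (394 and 284 against 0.0199 CPM). Of 5 tested mural markers 4 were lower and 1, Acta2, was higher. The mural sum of 198 and 159 against 978 CPM is nearly all Acta2 in myoblasts. The part of these RNAs in the results below was not tested.

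Of 12449 genes tested, 4794 (38.5%) were higher and 3970 (31.9%) lower in primary myoblasts than in homeostatic MuSCs, at an adjusted p under 0.05 (quasi-likelihood test of edgeR, Benjamini-Hochberg). Of these, 3932 and 3091 differed by over 2-fold. The median log2 fold change of all tested genes was 0.17. The balance of the 2 directions depends on the scaling: without scaling factors, which moves the median by 0.37 upward, 5807 genes were higher and 3134 lower. With DESeq2 3187 were higher and 3629 lower. Each list below is read against these shares, and a list with shares near them says little. The 6 genes used to choose the cells are left out of every count.

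Genes of S phase and mitosis rose almost throughout. In S phase (DNA replication and its licensing), 37 of 43 tested genes were higher and 2 lower (median log2 fold change 2.63). For G2 and M phase (mitotic entry, spindle and chromosome segregation) 48 of 54 were higher and 4 lower, with a median of 5.61, or 5.11 when genes without a homeostatic count are set at their bound. Cdk1, the kinase that drives entry into mitosis, had 0 and 1 UMI in homeostatic 1 and 2 and 14784 in myoblasts (0 and 0.318 against 97.9 CPM), a ratio of 650.0 (counting interval 117 to 25676). The fitted log2 fold change was 9.31, or 8.26 without homeostatic 1, and without homeostatic 2 no homeostatic UMI is left. Cdca3, a mitotic entry factor, had no homeostatic UMI and 42.4 CPM in myoblasts, at least 93.9-fold higher. Hells, a chromatin remodeller of replicating cells, measured 1.15 and 1.27 against 44.8 CPM, a rise of 5.21 ± 0.32 (log2, SE; adjusted p = 8.7e-10, edgeR with Benjamini-Hochberg). The replication helicase subunit Mcm2, which has 6 near-identical copies and so an uncertain count, measured 1.72 and 2.54 against 40 CPM. For both genes the homeostatic libraries lie close together and the myoblast value is well outside them. Against the list, Pcna, the replication clamp, was lower (113 and 116 against 51.3 CPM), as was Slbp, the histone mRNA binding protein (52.1 and 45.8 against 13.2 CPM).

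The upstream sequences of the mitotic genes are shown because of their motifs and because most genes of this list rose. The promoters of the list hold the short motifs CCAAT and TTTGAA, each counted on its own, more often than the promoters of all genes. CCAAT (read on both strands, so also ATTGG) and TTTGAA (also TTCAAA) are, as background, known elements of promoters whose genes are expressed late in the cell cycle. Promoters were taken from RefSeq (GRCm38.p6), 250 bases before to 50 after each start, and 48 of the 54 tested G2 and M genes were matched. CCAAT occurred in 75.5% of their 53 promoters, against 37.4% of all 32851 in the table, and TTTGAA in 64.2% against 17.9%. The 34 promoters of 31 matched S phase genes held CCAAT in 67.6% and TTTGAA in 17.6%. GGCGGGAA, an E2F-type motif, was in 20.6% of the S phase promoters, 1.89% of those of G2 and M and 2.19% of all. A match describes letters and is not a site of binding. The 160 bases before the start are given 5′ to 3′ on the gene's strand, with CCAAT and TTTGAA on either strand in capitals, for 4 genes chosen because they hold both motifs, at chr10:69352913-69353072, minus strand (Cdk1), chr4:118437344-118437503, minus strand (Cdc20, the activator of the anaphase-promoting complex), chr11:99024190-99024349, minus strand (Top2a, the topoisomerase that untangles chromosomes) and chr2:164769769-164769928, plus strand (Ube2c, the ubiquitin-conjugating enzyme of that complex).
Cdk1: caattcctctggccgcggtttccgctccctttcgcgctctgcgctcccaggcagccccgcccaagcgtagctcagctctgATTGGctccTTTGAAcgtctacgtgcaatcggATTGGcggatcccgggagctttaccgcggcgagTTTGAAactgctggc
Cdc20: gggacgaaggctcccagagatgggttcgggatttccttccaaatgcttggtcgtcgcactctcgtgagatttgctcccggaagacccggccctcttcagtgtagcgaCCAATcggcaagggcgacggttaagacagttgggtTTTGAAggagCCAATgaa
Top2a: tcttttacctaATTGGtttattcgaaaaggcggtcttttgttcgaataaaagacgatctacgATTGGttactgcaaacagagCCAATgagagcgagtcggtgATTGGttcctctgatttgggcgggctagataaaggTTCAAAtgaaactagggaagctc
Ube2c: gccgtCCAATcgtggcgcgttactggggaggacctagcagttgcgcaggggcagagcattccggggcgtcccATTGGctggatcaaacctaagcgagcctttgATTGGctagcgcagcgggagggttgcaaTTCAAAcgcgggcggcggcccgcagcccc
Each of the 4 has at least 2 CCAAT matches and 1 TTTGAA match within this stretch. In the data Cdc20 measured 2.29 and 2.22 against 102 CPM, Top2a 2.01 and 1.91 against 111 CPM and Ube2c 0 and 1.59 against 109.8 CPM, so all 3 stood at a few CPM or none in the homeostatic libraries and far above them in myoblasts.

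Counted per cell, a UMI of Top2a or Mki67 was found in 13.6% of myoblasts thinned to 1000 UMIs (exact binomial 95% interval 12.6 to 14.7), in 0.167% of 1181 cells of homeostatic 1 (0.0205 to 0.61) and in 0.131% of 970 of homeostatic 2 (0.00261 to 0.573). Intervals cover counting error only. Without thinning the shares were 50.6%, 0.429% and 0.242%. In cells of total muscle with an immune, endothelial or tenocyte UMI and no myogenic one (876 and 1051 cells, median 2822.5 and 2865 UMIs) the thinned share was 0.799% and 0.955%. The homeostatic libraries hold only 6 and 8 such cells and the myoblast library none, so background from free RNA could not be measured in it. Leaving out every myoblast with a Top2a or Mki67 UMI kept 2143 cells. Among them the S phase list had 29 of 43 higher and 6 lower, with a median of 1.28. The G2 and M list had 37 of 54 higher and 9 lower, with a median of 2.56. Top2a and Mki67 belong to the second list, so part of that decrease is fixed by how the cells were chosen.

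Cyclins, their kinases and inhibitors mostly rose, with 14 of 19 higher and 2 lower (median 2.85, 2.19 without homeostatic 2 and 1.73 without the cells holding Top2a or Mki67). Ccnd2, a D-type cyclin that starts the cycle, measured 10.3 and 5.72 against 539 CPM, 66.5-fold higher (log2 6.05 ± 0.25 SE, edgeR Benjamini-Hochberg adjusted p = 1.8e-11). It was seen in 45.1% of thinned myoblasts and in 0.858% and 0.527% of homeostatic cells. Ccnd1 measured 49.8 and 36.5 against 613 CPM. Ccne1, the cyclin of the entry into S phase, measured 0.286 and 0.636 against 50.5 CPM, on 3 homeostatic UMIs, a ratio of 112 (counting interval 38.2 to 541); its log2 fold change was 6.79, or 7.44 without homeostatic 2. Of the 7 inhibitors of these kinases in the list, 3 rose (Cdkn2a, Cdkn2b and Cdkn2d), 2 fell (Cdkn1b and Cdkn2c) and 2 were not called (Cdkn1a and Cdkn1c). Cdkn2a, whose transcripts encode p16 and p19Arf, measured 1.15 and 0.953 against 353 CPM, 334-fold higher (adjusted p = 4.0e-12, edgeR with Benjamini-Hochberg), and was found in 34.2% of thinned myoblasts against 0.0643% and 0.0891%. Its neighbour Cdkn2b measured 2.86 and 1.91 against 75.4 CPM. Cdkn1b (p27), which holds resting cells out of the cycle, was lower, at 27.2 and 19.1 against 5.2 CPM. Cdkn1a (p21) did not pass the test, with 801 and 525 against 740.2 CPM, a log2 fold change of 0.16 ± 0.21 (SE), and the myoblast level lies between the 2 homeostatic ones.

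**Figure D2:**
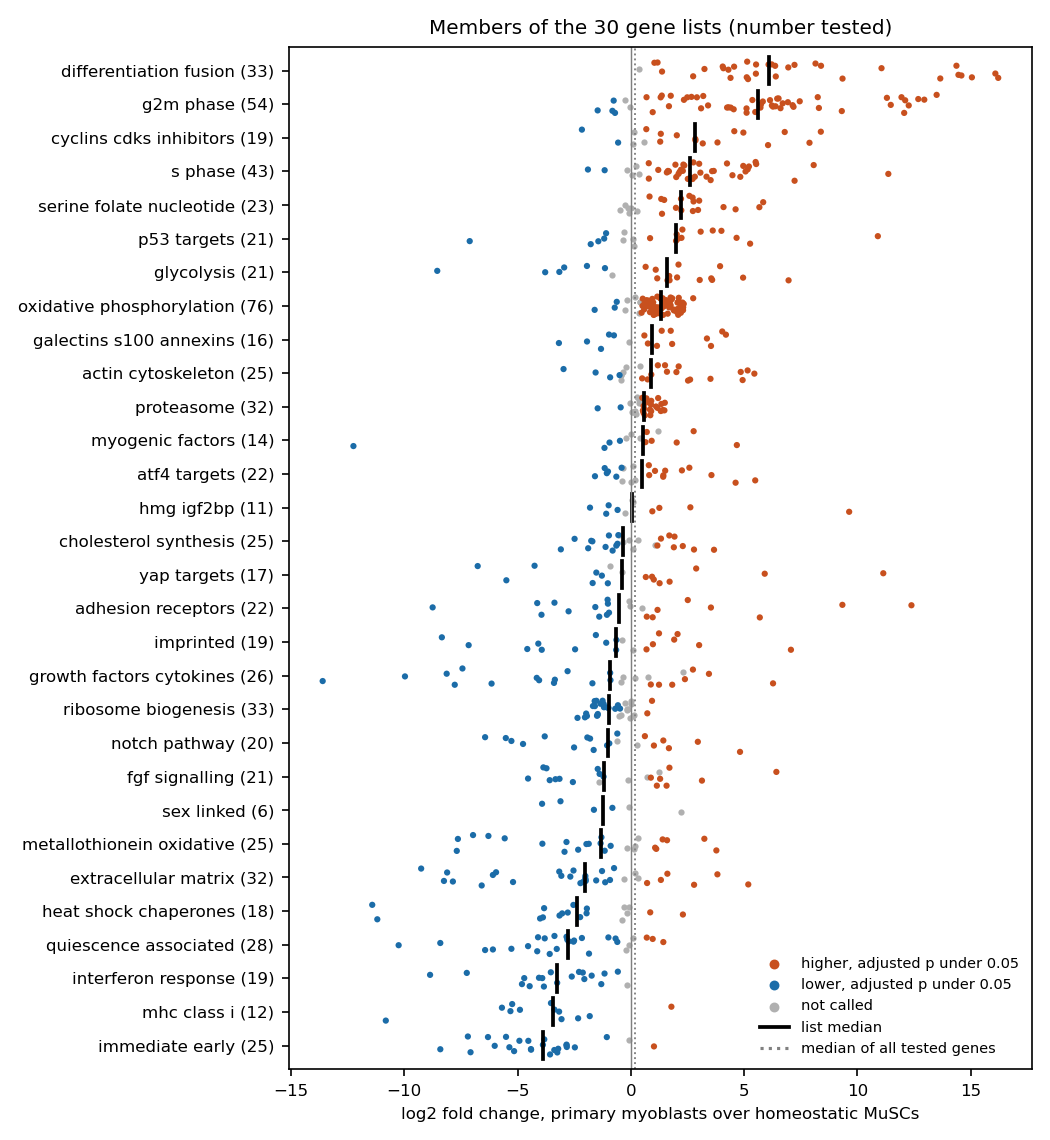
Log2 fold change of primary myoblasts over homeostatic MuSCs for each tested member of the 30 gene lists, ordered by the list median (black bar). Orange points are higher and blue points lower at adjusted p under 0.05, grey points were not called, points beyond about 11 on either side mostly rest on a group with hardly any counts, and the dotted line is the median of all tested genes, 0.17; differentiation genes lie at the top and immediate early genes at the bottom.

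The genes used to choose the cells are given as levels only. Myf5 measured 197 and 248 against 7.68 CPM, and Myod1 1671 and 1737 against 467 CPM. Myog, the switch to differentiation, measured 2.58 and 0 against 436 CPM, the last from 65794 UMIs. Des, the muscle intermediate filament, measured 975 and 1059.9 against 637 CPM, and Cdh15, M-cadherin of the satellite cell membrane, 109.7 and 75.3 against 153 CPM. Chrdl2, a secreted antagonist of bone morphogenetic proteins, measured 346 and 364 against 0.00662 CPM, the last from a single UMI.

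Among the myogenic factors not used to choose cells, 6 of 14 were higher and 4 lower, near the shares of all tested genes. Msc (musculin), a repressor of the same helix-loop-helix family, measured 292 and 321 against 0.0596 CPM, the last on only 9 UMIs. The fitted fall of Msc was 4843-fold (log2 -12.24 ± 0.38 SE, adjusted p = 1.2e-12, edgeR with Benjamini-Hochberg). Mef2c, a transcription factor of muscle genes, measured 4.01 and 1.91 against 77 CPM, 25.6-fold higher, with a log2 fold change of 4.68, or 5.34 without homeostatic 1. Tcf3, the E protein that pairs with Myod1, measured 16.3 and 10.5 against 92.2 CPM, and Tcf12, another E protein, 52.1 and 61.7 against 88.9 CPM; the call of Tcf12 is lost with DESeq2. The homeobox factor Six4 (4.58 and 5.08 against 19.6 CPM) rose, while Mef2d (49.8 and 35 against 19 CPM) and Id3, an inhibitor of E proteins (1256 and 1095 against 612 CPM), fell. Id1, of the same inhibitor family, fell by 0.48 on the log2 scale (adjusted p = 0.0466, edgeR with Benjamini-Hochberg). That call is lost without homeostatic 1, without the filter on low counts, without scaling and without the cells holding Top2a or Mki67, with log2 values of -0.41, -0.27, -0.11 and -0.38. Mef2a (57.6 and 68 against 82.8 CPM), Myf6 (1.43 and 0.318 against 2.07 CPM), Id2 (138 and 130.3 against 114 CPM) and Pax3 (7.45 and 8.26 against 7.9 CPM) were not called. Mef2a becomes a call without homeostatic 2, without scaling, without the filter on low counts and without the cells holding Top2a or Mki67. Its log2 values there are 0.52, 0.77, 0.61 and 0.83. Myf6 becomes one without homeostatic 1 (log2 2.70) and without the cells holding Top2a or Mki67 (log2 1.92). Id2 becomes one with DESeq2 (log2 -0.39).

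Pax7, the stem cell factor, was present in the culture. It measured 42.1 and 28 against 57.3 CPM, a log2 fold change of 0.70 ± 0.24 (SE; adjusted p = 0.0164, edgeR with Benjamini-Hochberg). The myoblast value lies above both homeostatic ones, and the homeostatic libraries differ from each other about as much as homeostatic 1 does from myoblasts. The call is lost with RLE size factors (0.55), with DESeq2 (0.55), without homeostatic 2 (0.44) and in thinned cells (0.46). Thinned to 1000 UMIs, 7.23% of myoblasts (6.48 to 8.05) and 4.67% and 2.62% of homeostatic cells held a Pax7 UMI. Without thinning the shares were 75.2%, 9.23% and 5.88%. No non-myogenic cell of total muscle held one.

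**Figure D3:**
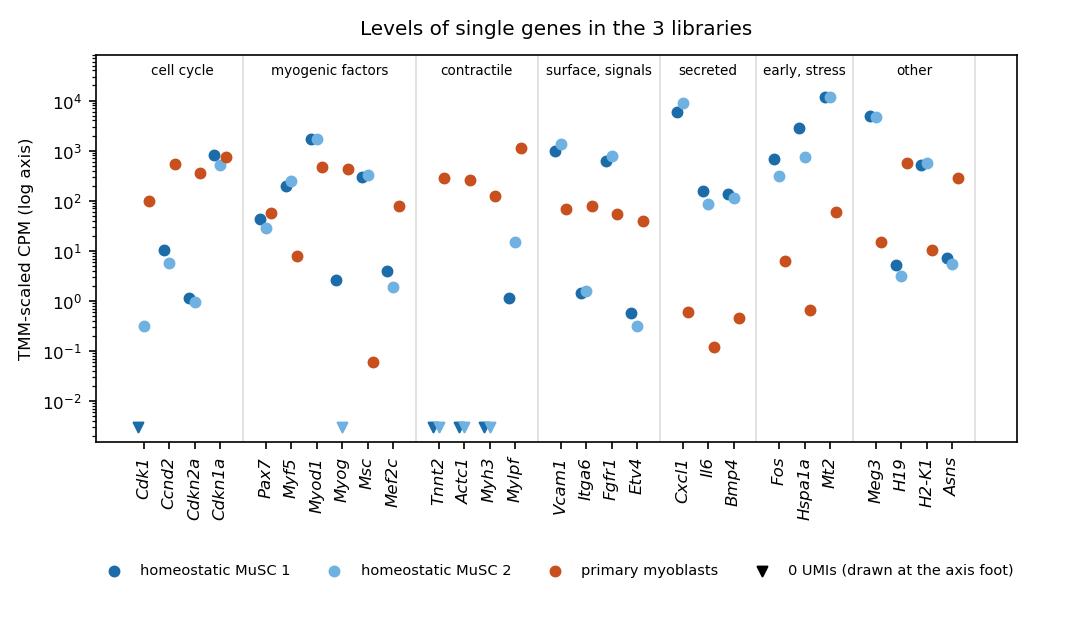
TMM-scaled CPM (log axis) of single genes in homeostatic 1, homeostatic 2 and primary myoblasts, grouped by role; triangles at the foot mark 0 UMIs. For most of these genes the homeostatic libraries sit together and the myoblast library apart, with Cdkn1a and Pax7 as near-overlaps (Pax7 at 42.1, 28 and 57.3 CPM).

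Genes of differentiation and fusion rose. Of 33 tested, 32 were higher and 0 lower (median log2 6.08), and 1, Ckm, the muscle creatine kinase, was not called (2.58 and 14 against 10.3 CPM). Several embryonic and cardiac-type contractile genes were not detected in the homeostatic MuSCs. Tnnt2, cardiac troponin T, had no UMI in either homeostatic library and 279 CPM in myoblasts, at least 618-fold higher. Actc1, cardiac alpha-actin, also had none and 256 CPM (at least 566-fold higher). Myh3, the embryonic myosin heavy chain, had none and 125 CPM (at least 276-fold higher). The same held for Mybph, a thick filament protein (90.6 CPM), for Chrng, the fetal subunit of the acetylcholine receptor (82.7 CPM), and for Tmem8c, which encodes the fusogen myomaker (77.8 CPM). Each had 0 UMIs in 2638 homeostatic cells, which allows a share of up to 0.114% of cells with a UMI. Mylpf, a fast myosin light chain, measured 1.15 and 14.6 against 1138 CPM, and Acta1, skeletal alpha-actin, 7.45 and 24.5 against 719 CPM. Of the markers of mature fibres, most of which are also in this list, 7 of the 8 tested were higher. All 10 summed to 20.5 and 102 against 3079 CPM without scaling, so the sum and the scaled levels of single genes are not on 1 scale. CANNTG, the E-box that myogenic factors bind, was in 85.2% of 27 promoters of 25 matched genes and in 72.3% of all promoters.

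Within the culture, stem cell, differentiation and division markers were counted per cell. Myog is one of the genes that chose the cells, and cells of 1 library are not replicates, so these shares are a description with no test. With myoblasts thinned to 10000 UMIs (4189 cells, 1 random draw), Pax7 was found in 49.6% (48.1 to 51.2), Myog in 44.9% (43.3 to 46.4) and Top2a or Mki67 in 39.4% (37.9 to 40.9). Pax7 and Myog occurred together in 20.1% of cells. Myog was found in 40.5% of cells with a Pax7 UMI and in 49.1% of those without. Top2a or Mki67 was found in 35.8% of cells with Myog and 42.4% of cells without. With and without Pax7 those shares were 38.6% and 40.2%. None of the 4 genes was found in 14.1% of cells. All of these come from 1 library, and the intervals cover counting error among its cells only. No doublet caller was run and free RNA could not be measured in it, and their part in the joint shares was not tested.

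**Figure D4:**
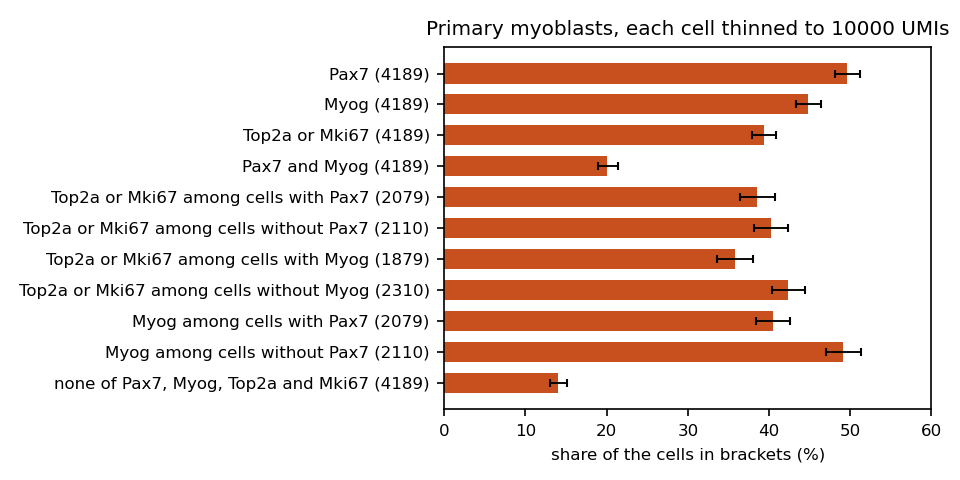
Share in percent (bars, with exact binomial 95% intervals) of primary myoblasts in which the named genes had a UMI, each cell thinned to 10000 UMIs; the number of cells each share refers to stands in brackets. Pax7 and Myog are each found in under 50% of cells and together in 20.1%, and Top2a or Mki67 in 35.8% of cells with Myog and 42.4% of cells without.

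Quiescence-associated genes fell. Of 28 tested, 22 were lower and 3 higher (median -2.77). Tgfbr3, the betaglycan coreceptor, measured 68.5 and 50.8 against 0.172 CPM, 339.8-fold lower. Hey1, a Notch target that keeps satellite cells quiescent, measured 59.9 and 62 against 0.702 CPM, 86.3-fold lower, and Col5a3, a collagen V chain, 40.7 and 38.1 against 0.576 CPM. Calcr, the calcitonin receptor of resting satellite cells, measured 33.2 and 23.8 against 0.0199 CPM (3 UMIs). Sdc4, a heparan sulphate proteoglycan used to recognise satellite cells, measured 4183 and 4890.5 against 439 CPM. Megf10 (24.1 and 19.1 against 18.6 CPM), Itga7 (63.3 and 56.9 against 56.4 CPM) and Cdkn1c (31.8 and 29.9 against 32.9 CPM) were not called and their myoblast values lie near the homeostatic ones.

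More Notch pathway genes were lower than higher, with 12 of 20 lower and 6 higher (median -1.0). Among its receptors Notch3 (97.4 and 76 against 6.23 CPM) and Notch2 (55 and 47.7 against 9.05 CPM) fell. The ligand Jag1 fell from 38.7 and 57.8 CPM to 1.05 CPM. Of 4 tested target genes of the Hes and Hey family, 3 fell, Hey1 as above, Heyl (38.7 and 15.9 against 0.709 CPM) and Hey2 (1.72 and 0.953 against 0.0464 CPM). Hes1 rose (98.8 and 26.1 against 170.1 CPM), and for Hes1 homeostatic 1 lies nearer to myoblasts than to homeostatic 2.

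The culture medium supplied bFGF, a ligand of fibroblast growth factor signalling. More genes of that pathway were lower than higher: 10 of 21 fell and 7 rose (median -1.20). Fgfr1, a main FGF receptor of satellite cells, measured 612 and 792 against 53.1 CPM, 13.2-fold lower (log2 -3.72 ± 0.24 SE, adjusted p = 1.6e-09, edgeR with Benjamini-Hochberg). Fgfr4 measured 83.4 and 59.7 against 3.09 CPM, and Spry1, an inhibitor of receptor signalling, 86.2 and 86.1 against 7.2 CPM. Etv4, an ETS factor induced by the pathway, measured 0.573 and 0.318 against 39.1 CPM, a ratio of 86.4 (counting interval 29.6 to 419) on 3 homeostatic UMIs. The inhibitors Dusp6 (18.9 and 17.5 against 59.3 CPM) and Dusp4 (17.5 and 13.3 against 46.2 CPM), which act on ERK, also rose, so targets went both ways.

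Of the 10 largest fitted falls, 4 were chemokines of the CXC family. Cxcl1, a neutrophil-recruiting chemokine, measured 5821 and 8904 against 0.59 CPM, 12409-fold lower (log2 -13.60 ± 0.38 SE, adjusted p = 5.6e-13, edgeR with Benjamini-Hochberg). It was found in 76.3% and 84.4% of thinned homeostatic cells, 0.082% of myoblasts and 26.8% and 26.6% of non-myogenic cells of total muscle. Cxcl2 measured 1064 and 2333 against 0.0265 CPM, the last on 4 UMIs, with a log2 fold change of -15.78, or -15.15 without homeostatic 2. Cxcl3 and Cxcl5 had no UMI in myoblasts, against 219 and 401 CPM and 123 and 251 CPM, at least 15375-fold and 9234-fold lower. For these genes homeostatic 2 is the higher library. Without homeostatic 1 their fitted log2 values, which depend on the prior count and are no bound, move to -17.02 and -16.34. Il6 fell from 158 and 87.1 CPM to 0.119 CPM, Ccl2 from 611 and 736 to 3.08, and Bmp4, a growth factor that restrains differentiation, from 138 and 116 to 0.45. In the list of growth factors and cytokines 14 of 26 were lower and 7 higher. Other large falls were Vtn (vitronectin, none in myoblasts, at least 4844-fold lower), Nppc (532 and 360.4 against 0.0265 CPM, 4 UMIs) and Tnfaip6 (375 and 322 against 0.0265 CPM, 4 UMIs). So were the complement inhibitor Serping1 (405 and 445 against 0.0464 CPM, 7 UMIs) and the chemoattractant Rarres2 (221 and 179 against 0.0199 CPM, 3 UMIs). The transporter Slc10a6 (90.5 and 52.8 against 0.00662 CPM, 1 UMI) fell too.

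Among the 10 largest fitted rises, all in genes with 0 homeostatic UMIs, 4 were in genes of other kinds; the fitted value of such a gene depends on the prior count, so it sets no order. Mcpt8, a serine protease named for mast cells, measured 393 CPM in myoblasts, at least 869.9-fold higher, and had a UMI in 33.2% of thinned myoblasts and in 92.6% of unthinned ones. It was at 0 of 2638 homeostatic cells. Prkg2, a cGMP-dependent protein kinase, measured 214 CPM (22.7% of thinned myoblasts), Cst6, a cysteine protease inhibitor, 129 CPM (15.2%), and Nefl, the light neurofilament, 58.3 CPM (6.41%). In the non-myogenic cells of total muscle the thinned shares were 0% and 0% for Mcpt8, 0.113% and 0.0764% for Prkg2 and 0.269% and 0.269% for Cst6, so such cells seldom held them.

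**Figure D5:**
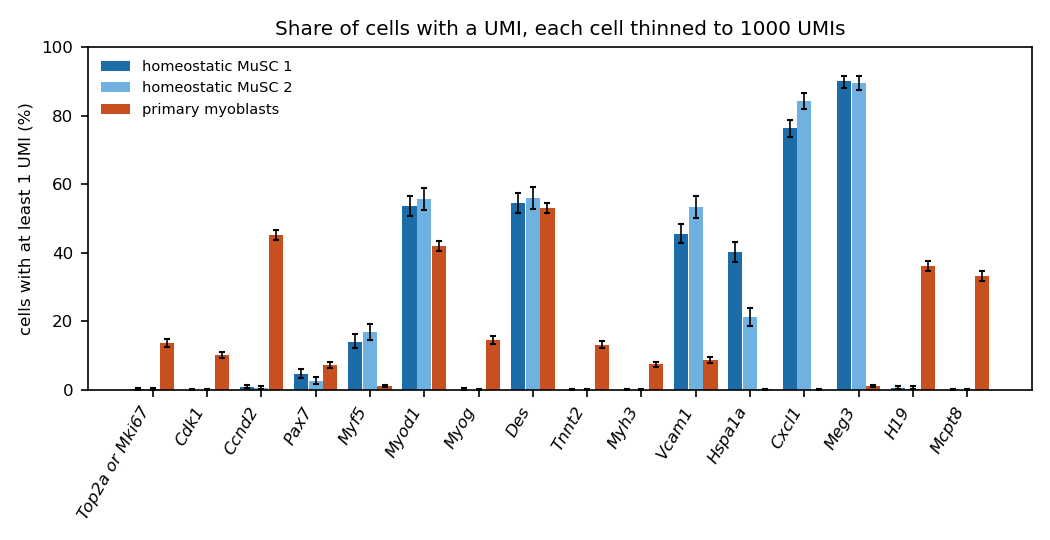
Share of cells in percent with at least 1 UMI of the named gene, each cell thinned to 1000 UMIs, in homeostatic 1 (1181 cells), homeostatic 2 (970 cells) and primary myoblasts (4338 cells), with exact binomial 95% intervals for counting error. The homeostatic bars for Cxcl1 and Meg3 stand above 75% and the myoblast bars at or below 1%, and the reverse order holds for Ccnd2, H19 and Mcpt8.

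Immediate early genes, which respond within minutes to stimulation and also to enzymatic dissociation of tissue, fell. Of 25, 23 were lower and 1 higher (median -3.88). Cebpb measured 2378 and 2285 against 15.9 CPM (146-fold lower), Fosb 428 and 253 against 2.52 CPM and Fos 694 and 313 against 6.37 CPM (log2 -6.30, or -5.61 without homeostatic 1). Nr4a3, an orphan nuclear receptor of the same response, measured 47 and 22.6 against 0.0994 CPM (log2 -8.41, or -7.78 without homeostatic 1). Homeostatic 1 is the higher of the pair for Fosb, Fos and Nr4a3, and the pair lies close together for Cebpb. In 31 promoters of 22 matched genes TGACGTCA, the cAMP response element, was in 9.68%, against 1.79% of all promoters. Klf2 was the member that rose (49.8 and 21.9 against 73.4 CPM).

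Heat shock genes mostly fell, with wide spread between the homeostatic libraries. Of 18, 12 were lower and 2 higher, Hspb6 and Chordc1 (median -2.39). Hspa1a, the inducible Hsp70, measured 2846 and 746 against 0.656 CPM (log2 -11.41 ± 0.80 SE, adjusted p = 4.8e-09, edgeR with Benjamini-Hochberg). Homeostatic 1 lies well above homeostatic 2, and the value is -10.14 without homeostatic 1 and -12.08 without homeostatic 2. Its twin Hspa1b measured 285 and 102 against 0.0795 CPM (-11.19, or -10.26 without homeostatic 1). Dnajb1, a cochaperone of Hsp70, measured 844 and 283 against 35.1 CPM (-4.00, or -3.0 without homeostatic 1 and -4.59 without homeostatic 2). Hspa5, the chaperone of the endoplasmic reticulum, measured 6852 and 5747 against 428 CPM. Hsp90ab1 (3002 and 2805 against 2379.9 CPM) and Hspd1 (694 and 611 against 579.8 CPM) were not called. GAANNTTC, a pair of inverted units of the heat shock element, was in 57.1% of 21 promoters of 14 matched genes against 7.86% of all promoters. For 2 of the genes that fell these stretches are shown, the 160 bases before the start at chr17:34972157-34972316, minus strand (Hspa1a) and chr5:135887759-135887918, plus strand (Hspb1, a small heat shock protein with 1 near-identical copy, 2736 and 1791 against 277 CPM), with the motif in capitals.
Hspa1a: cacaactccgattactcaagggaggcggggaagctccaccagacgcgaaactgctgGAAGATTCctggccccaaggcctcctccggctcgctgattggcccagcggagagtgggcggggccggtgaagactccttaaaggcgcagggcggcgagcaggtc
Hspb1: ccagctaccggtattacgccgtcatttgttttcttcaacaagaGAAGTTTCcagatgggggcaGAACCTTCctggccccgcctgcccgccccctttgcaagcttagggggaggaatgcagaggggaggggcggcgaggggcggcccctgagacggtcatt
The first holds 1 match and the second 2.

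Metallothioneins and part of the oxidative stress genes were far lower. Mt2, a metal-binding metallothionein, measured 12008 and 11982 against 60.5 CPM, 198-fold lower, and Mt1 12185 and 9268 against 226 CPM. Gpx3, a secreted glutathione peroxidase (3405 and 3564 against 27.9 CPM), and Hmox1, haem oxygenase (2249.8 and 2943 against 33.3 CPM), fell as well. The list had 15 of 25 lower and 6 higher. Gpx1 rose (19.8 and 18.1 against 259 CPM). Haemoglobin transcripts differed the same way (Hbb-bs at 960.3 and 398 CPM, none in myoblasts), at no more than 1% of UMIs in 1396 of 1397 and 1240 of 1241 homeostatic cells. The part of red cell RNA in these values was not tested.

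Antigen presentation and interferon genes fell. In the MHC class I list 11 of 12 were lower and Psmb10, an immunoproteasome subunit, was higher. H2-K1, a classical class I heavy chain without a near-identical copy, measured 515 and 557 against 10.4 CPM, 51.6-fold lower. H2-D1 (1112 and 1236 against 29.5 CPM) and H2-Q4 (336 and 345 against 0.185 CPM) have near-identical copies, so their counts are uncertain. Tap2, which carries peptides to class I molecules, measured 46.4 and 45.1 against 3.97 CPM. Among interferon-response genes 18 of 19 were lower and none higher (median -3.25, -2.31 in thinned cells), and Gbp2, a guanylate-binding protein, measured 148 and 249 against 0.424 CPM. Ifitm3, an antiviral membrane protein, measured 1422 and 1725 against 258 CPM, 6.09-fold lower, so it was still detected in the culture.

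Matrix and adhesion genes changed in both directions. In the extracellular matrix list 23 of 32 were lower and 6 higher (median -2.0). Dcn, the proteoglycan decorin and a fibro-adipogenic marker as well, measured 83.1 and 100.4 against 0.298 CPM, Col15a1 40.1 and 31.1 against 0.126 CPM and the collagen cross-linker Lox 41 and 49.6 against 0.729 CPM. As given above, the sum of fibro-adipogenic markers was higher in the homeostatic libraries. That sum includes Dcn and Col3a1 themselves, while Pi16 was at 0 in both homeostatic libraries and Pdgfra at 0 in homeostatic 2. How much of the fall in collagens and decorin comes from RNA of fibro-adipogenic cells was not tested. Fn1, fibronectin (4.3 and 1.59 against 109 CPM), and Lamb1, a laminin chain (5.16 and 5.4 against 74.5 CPM), rose. Of 22 adhesion receptors 11 fell and 8 rose. Vcam1, a surface protein used to sort satellite cells, measured 1004 and 1347 against 67 CPM, 17.5-fold lower, and the tetraspanin Cd82 750.3 and 719 against 47.8 CPM. Icam1 fell from 43 and 34 CPM to 0.0861 CPM. Itga6, the laminin-binding integrin alpha 6, rose from 1.43 and 1.59 CPM to 78 CPM, 51.7-fold.

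The actin cytoskeleton list had 15 of 25 higher and 4 lower. Tpm1, a tropomyosin of muscle and of stress fibres, measured 49.6 and 62.9 against 1997 CPM, 35.6-fold higher, Tpm2 14.9 and 20.3 against 506 CPM and the calponin Cnn2 6.88 and 2.86 against 217 CPM (log2 5.45, or 6.25 without homeostatic 1). Acta2, smooth muscle actin and a mural marker, measured 123 and 113 against 721 CPM, scaled values unlike the mural sum given above. It was found in 40.8% of thinned myoblasts, and the other mural markers Rgs5, Kcnj8, Pdgfrb and Abcc9 were lower. Genes regulated by YAP, which responds to stiff substrates, did not move as 1 group: 8 of 17 rose and 7 fell, and the median of -0.41 changes sign under several settings. Ctgf fell (74.8 and 123 against 0.908 CPM), and Ankrd1 rose (159 and 138 against 1096 CPM). Among small calcium-binding and sugar-binding proteins, S100a6 (302 and 331 against 5180.3 CPM), Lgals1 (819 and 708 against 8862 CPM) and Lgals3 (16.3 and 31.5 against 434 CPM) rose. In that list 10 of 16 were higher and 5 lower.

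Metabolic genes mostly rose. Oxidative phosphorylation had 67 of 76 higher and 3 lower at a median log2 of 1.33. Ndufa8, a complex I subunit, measured 39.2 and 37.5 against 259 CPM, and Atp5c1, of the ATP synthase, 94.5 and 95.7 against 479.6 CPM. In glycolysis 14 of 21 rose and 6 fell. Among the first were the muscle enolase Eno3 (3.72 and 4.45 against 507 CPM) and Tpi1 (26.4 and 20.7 against 361 CPM). Hk2, the inducible hexokinase that traps glucose, fell (378 and 397 against 28.2 CPM), as did the glucose transporter Slc2a3 (19.5 and 12.7 against 0.0397 CPM) and the lactate transporter Slc16a3 (92.2 and 44.2 against 7.68 CPM). Serine, folate and nucleotide synthesis had 17 of 23 higher and none lower (median 2.21, or 1.21 without the cells holding Top2a or Mki67). Psph, the last enzyme of serine synthesis, measured 16.6 and 14.6 against 266 CPM, 17-fold higher, and Tk1, thymidine kinase, 0.859 and 0.636 against 43.4 CPM. Phgdh, the first enzyme of serine synthesis, measured 21.5 and 20 against 512 CPM, but it has 11 near-identical copies. Asns, asparagine synthetase and a target of ATF4, measured 7.16 and 5.4 against 284 CPM, 44.9-fold higher. The list of ATF4 targets went both ways (11 of 22 higher, 6 lower). Slc3a2, an amino acid transporter subunit, fell (659.8 and 634 against 216 CPM).

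In cholesterol synthesis 11 of 25 were lower and 8 higher, beside 31.9% lower and 38.5% higher among all tested genes. Srebf2, its transcription factor, measured 76.8 and 66.4 against 21.3 CPM. Ribosome biogenesis fell, with 20 of 33 lower and Npm1 and Bop1 higher. The nucleolar helicase Ddx21 measured 629 and 757 against 135 CPM and Gnl3, nucleostemin, 513 and 610.2 against 146 CPM. The list median of -0.98 stands against 0.17 for all genes. Over the 29 members without a near-identical copy it is -0.69, against 0.21 for all tested genes without one. Proteasome subunits had 22 of 32 higher and 2 lower (median 0.60), for example the catalytic subunit Psmb5 (93.7 and 101 against 258 CPM), and Psmd11 was lower (392 and 451 against 153 CPM).

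Targets of p53 were mostly higher, 12 of 21 against 5 lower (median 2.00, or 1.11 with all cells that pass the gene and mitochondrial filters). Phlda3, an inhibitor of Akt, measured 12.3 and 8.9 against 409.9 CPM, 38.4-fold higher, Ccng1, cyclin G1, 8.88 and 7.63 against 210.2 CPM, and Zmat3 2.58 and 4.13 against 40.7 CPM. Fas, the death receptor, fell from 240.1 and 198 CPM to 1.58 CPM. As said above Cdkn1a, a classical target, was not called. Of the chromatin and mRNA-binding genes of fetal cells 4 of 11 were higher and 4 lower. These shares are near those of all tested genes (38.5% and 31.9%), so the list as a whole says little. Hmga2, a chromatin protein of proliferating and embryonic cells, measured 0.286 and 0.636 against 362 CPM, on 3 homeostatic UMIs, a ratio of 801 (counting interval 274 to 3886). Its log2 fold change was 9.63, or 10.28 without homeostatic 2. Igf2bp3 fell (61.6 and 63.2 against 17.9 CPM).

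Imprinted genes showed opposite extremes, with 7 of 19 higher and 10 lower. Meg3, the maternal non-coding RNA of the Dlk1 domain, measured 4834 and 4696 against 14.7 CPM, 324-fold lower (log2 -8.34 ± 0.26 SE, adjusted p = 1.2e-12, edgeR with Benjamini-Hochberg). It was found in 90% and 89.6% of thinned homeostatic cells and 0.993% of myoblasts. Mirg, a microRNA host transcript of that domain, measured 43.5 and 40.7 against 0.291 CPM. H19, the maternal RNA of the Igf2 domain, measured 5.16 and 3.18 against 564 CPM, 134-fold higher, and was found in 36.2% of myoblasts against 0.492% and 0.363%. Grb10, an adaptor of the insulin receptor, fell (111 and 98.8 against 6.19 CPM). The genes of the Y chromosome also differed, Ddx3y at 329 and 272 against 34.9 CPM and Eif2s3y at 76.8 and 66.1 against 40.7 CPM (the call of Eif2s3y is lost without scaling). Both groups thus held Y-linked transcripts, while both injured libraries used for the spread held under 1 CPM of Ddx3y.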

How the data were processed

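Droplet 3' libraries were made with a 10X kit, and the authors deposited 1 matrix of raw UMI counts per library, the only unit used here. The submitters' processing notes name Cell Ranger 2.2.0, bcl2fastq 2.17.1, Seurat 2.3.4 and the build mm10, and no normalization is recorded in the deposited counts. UMIs of the chosen cells were summed per library, and 5 libraries (homeostatic 1 and 2, injured 1 and 2, myoblasts) were fitted in edgeR 4.0.16 (R 4.3.3) with TMM scaling, filterByExpr and the quasi-likelihood test, taking myoblasts minus homeostatic MuSCs. The single myoblast library has no replicate, so its spread was taken to equal that of the sorted groups (coefficient of variation 12.1%, 2 residual degrees of freedom). Each SE was derived from the fold change and the F statistic. Genes without a count in 1 group are given as a bound against 3 counts over that group, and those with 1 to 3 counts as a ratio with its 95% counting interval. Shares are the expected share after thinning, which makes each cell equally deep. They and their intervals (scipy 1.17.1) cover counting error only. UMIs of the chosen cells ranged from 3031741 to 112325540 among the 5 fitted libraries. No doublet caller was run. Non-myogenic cells passed the same gene and mitochondrial filters, held no UMI of the 6 selecting genes and at least 1 of Ptprc, Pecam1 or Tnmd.

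The members and gene lists were chosen with earlier results of these data known. Genes named are the tested myogenic factors, the 10 largest rises and falls (at least 50 CPM, no near-identical copy, not in another cell type's marker list) and up to 4 members per list with at least 30 CPM. Other list and marker genes with values (such as Cdkn1a, Ccnd1, Hes1, Calcr, Pcna, Fn1, Klf2 and Acta1) and all promoters printed were chosen after their values were seen. Near-identical copies were searched with blastn 2.17.0 in the last 300 bases of transcripts (at least 90 bases at 95% identity, 27645 genes). The test was checked on simulated counts, in which some genes set to change by 1 on the log2 scale were not called. The simulation left most genes unchanged and gave the myoblast library the shared spread, so it cannot test either assumption. DESeq2 1.42.0, other scalings, filters, cell rules and each library left out were tried as alternatives. The 2 total muscle libraries served only for background shares and 1 alternative. Some genes that the naming rule covers are not reported here.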

Additional observations from a re-analysis of the deposited data

How the results depend on the processing

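Of 2545 values of the 142 named genes under the alternatives, 2528 kept their side of the threshold. Of the rest, 10 lost the call (Pax7, Id1, Tcf12 and Eif2s3y) and 7 gained one. None changed direction where the main or the alternative value was called. A change of direction with neither value called was counted as kept. DESeq2 called 3187 genes higher. Leaving out 1 library at a time gave 4550 to 4645 higher and 3676 to 3825 lower genes. With 1000 UMIs per cell 3307 of 9493 tested genes were higher and 3011 lower. The share of myoblasts with a Top2a or Mki67 UMI was 7.95% at 500 UMIs, 21.0% at 2000 and 50.6% without thinning, so it measures depth as well as cells.

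List medians kept their sign in 527 of 540 values. Leaving out 1 library at a time moved the YAP target median between -0.45 and 0.15 and that of the HMG and Igf2bp list between -0.016 and 0.062. The YAP target median (-0.41) became 0.10 with the 3 compared libraries only, 0.13 and 0.15 without injured 1 and 2, 0.044 without the 5% of cells with most UMIs, 0.12 without shared barcodes, 0.14 at no more than 5% mitochondrial UMIs and 0.16 with at least 2 marker UMIs. The cholesterol synthesis median (-0.35) became 0.028 without scaling. The median of the HMG and Igf2bp list (0.04) became -0.11 with RLE size factors, -0.11 with DESeq2, -0.016 without homeostatic 1, -0.52 without the cells holding Top2a or Mki67 and -0.0024 at no more than 5% mitochondrial UMIs. The cause of these changes was not tested. No paired analysis was possible because the myoblast library carries no replicate number. Depth limits homeostatic genes under a few CPM. Where the pooled homeostatic libraries hold 1 to 3 UMIs of a gene, as for Cdk1 (1) and Hmga2 (3), a single UMI weighs heavily in the ratio.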

Other observations

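The 26 tested genes that were not searched for near-identical copies had 6 higher and 11 lower (median log2 -1.32). Among the 795 tested genes with a near-identical copy 224 were higher and 361 lower (median -0.40), against 4564 higher and 3598 lower of 11628 without one (median 0.21). Thinned to 1000 UMIs, Top2a or Mki67 was found in 18.8% and 18.1% of the injured MuSCs, the sorted cells taken after notexin, against 13.6% of myoblasts. Injured 1 and 2 share 123 barcodes, 10.5% of the smaller set of cells. Krt18, an epithelial keratin, had no UMI in either homeostatic library and 24.8 CPM in myoblasts.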
